A study of Mus musculus with 4 samples.

Results

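Onecut1, Onecut2, Onecut3, Ebf1, Ebf2, Ebf3 and Ebf4, the complete mouse Onecut and Ebf transcription factor families, were read in a doxycycline-inducible model of motor neuron differentiation. The members were taken by name, 7 of the 21822 gene units counted, and all 7 had enough reads to be among the 14283 genes tested. RNA came from aggregates of iMN-ESCs, mouse embryonic stem cells of C57BL/6 background in which doxycycline (Dox) turns on a fusion of the LIM-homeodomain factors Isl1 and Lhx3. All aggregates spent 2 days in stem cell medium with leukaemia inhibitory factor (LIF) and then 2 days in all-trans retinoic acid at 0.5 µM, which was kept for a final 2 to 3 days. During that last step the Dox group (2 libraries) received 2 µg/mL Dox and the no Dox group (2 libraries) received none. Both groups carry the transgene and both received retinoic acid. Since no cells lacking the transgene were given Dox, the fusion and the drug cannot be told apart as sources of a difference.

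Onecut proteins bind DNA through a cut domain and a divergent homeodomain. Ebf proteins (early B cell factors, also called Olf or COE proteins) use a zinc-coordinating DNA-binding domain and pair through a helix-loop-helix motif. In the developing spinal cord both families appear as progenitors leave the cell cycle, in motor neurons and in several interneuron classes. In nascent mouse motor neurons they occupy enhancers that Isl1 and Lhx3 also use. The families also act elsewhere: Onecut1 (Hnf6) in liver and pancreas, Ebf1 in B cells and Ebf2 in brown fat.

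The Ebf genes are paralogs with the same exon plan, and the sequences below show how far apart their reads lie. In the GENCODE M21 models (GRCm38) they share 11 coding exons in a row. The printed exon is the fourth of them, 74 bases, chosen because it had the highest mean identity between the genes (81.8%) among the 9 exons of equal length. Sequences run 5′ to 3′ along the transcript, and capitals mark bases that differ from Ebf1.
Ebf1: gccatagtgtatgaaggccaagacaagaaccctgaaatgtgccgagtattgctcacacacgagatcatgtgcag
Ebf2: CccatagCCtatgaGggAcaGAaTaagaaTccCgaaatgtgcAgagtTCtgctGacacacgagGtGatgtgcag
Ebf3: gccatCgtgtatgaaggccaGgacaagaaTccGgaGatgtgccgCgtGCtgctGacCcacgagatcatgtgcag
Ebf4: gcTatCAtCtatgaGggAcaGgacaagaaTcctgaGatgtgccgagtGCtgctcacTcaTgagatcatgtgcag
Ebf2 differed from Ebf1 at 16 of these bases, Ebf4 at 13 and Ebf3 at 10. Over whole transcripts the longest identical run between any pair of Ebf genes was 27 bases (Ebf3 and Ebf4). Between Onecut genes the runs were 26 bases (Onecut1 and Onecut2), 38 bases (Onecut2 and Onecut3) and 50 bases (Onecut1 and Onecut3). The read length is not given in the sources used here, so how many reads fell wholly inside such runs is unknown. Other annotated genes overlap the loci of 5 members (all but Onecut2 and Ebf4), and since strand use is unknown their reads may not be separated from the member's own.

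The windows around the annotated starts of Ebf3 and Ebf4 are shown because these were the Ebf genes with the highest levels per kb, and their Dox differences were unlike. Each covers 250 bases before and 50 after the start in RefSeq (GRCm38.p6), with capitals at a match to CCCNNGGG, the core of the Ebf consensus. The Ebf3 window is chr7:137314396-137314695 (minus strand) and the Ebf4 window chr2:130295689-130295988 (plus strand).
Ebf3: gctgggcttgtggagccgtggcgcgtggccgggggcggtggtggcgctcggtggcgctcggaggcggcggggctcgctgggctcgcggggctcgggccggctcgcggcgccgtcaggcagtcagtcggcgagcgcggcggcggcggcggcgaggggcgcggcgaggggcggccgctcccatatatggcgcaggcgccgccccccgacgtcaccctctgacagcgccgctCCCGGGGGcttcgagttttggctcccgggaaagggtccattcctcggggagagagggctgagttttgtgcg
Ebf4: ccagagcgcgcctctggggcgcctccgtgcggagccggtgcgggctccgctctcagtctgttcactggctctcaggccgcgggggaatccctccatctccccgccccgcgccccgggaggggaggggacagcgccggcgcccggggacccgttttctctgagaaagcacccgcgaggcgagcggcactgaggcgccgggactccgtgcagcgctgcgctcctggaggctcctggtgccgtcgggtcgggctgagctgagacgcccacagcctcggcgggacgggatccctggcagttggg
CCCNNGGG, found in 13.7% of 32851 windows of this length, was present once at Ebf3 and not at Ebf4. Of 5 windows available for 4 members (Onecut1, Ebf1, Ebf3, Ebf4), none held ATTGAT or ATCGAT, Onecut-type sequences found in 7.5% and 0.9% of windows, nor the homeodomain core TAATTA (5.3%). Both strands were searched. These matches describe the letters in the windows and were not tested for binding.

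Counts in gene parts summed to 37311037 and 53903936 in the Dox libraries and to 28239859 and 24020832 in the no Dox libraries. Both fused factors followed the labels: Lhx3 stood at 125 and 108 CPM (counts per 1000000) with Dox against 0.404 and 0.286 CPM without, and Isl1 at 104 and 82.4 CPM against 3.08 and 5.84 CPM. Of 6 markers of cholinergic motor neurons, 4 were called higher with Dox and stood under 1 CPM in both no Dox libraries, among them Chat, which makes acetylcholine, with 18.1 and 16.4 CPM with Dox against 0.0367 and 0.122 CPM without. The other 2 were not called: Ret, a receptor for neurotrophic factors, stood at 36.1 and 31.9 CPM with Dox and 31.1 and 20.3 CPM without, and Prph, a filament protein, at 2.11 and 2.95 CPM with Dox and 0.551 and 2.33 CPM without. The design text calls the replicates biological duplicates. Replicates differed by far more than sampling noise, with a chi-square per degree of freedom of 32.6 between the Dox libraries and 36.5 between the no Dox libraries.

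Ebf1, Ebf2 and Ebf3 stood at about 0.46 to 0.51 times the no Dox level in the Dox libraries, and Onecut2 at 0.70 times. Ebf4 stood at 1.12 times, and the groups overlapped for Onecut1 and Onecut3. None of the 7 members was called higher or lower by edgeR's quasi-likelihood test, fitted without a replicate block, at an adjusted p under 0.05. That rule called 1.23% of all genes higher and 0.056% lower. At an unadjusted p under 0.05, 4 members were lower (background 4.02%) and 0 were higher (6.26%). DESeq2 called 2 members lower, Ebf2 and Ebf3 (0.741% of all genes), and limma-voom called 0 (0.084%). In the same 4 genes both Dox libraries lay below both no Dox libraries, as in 19.9% of all genes. The members' median log2 fold change was -0.51, against -0.01 over all genes tested. The number of cells of a type and the RNA per cell cannot be told apart in these bulk samples.

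**Figure D1:**
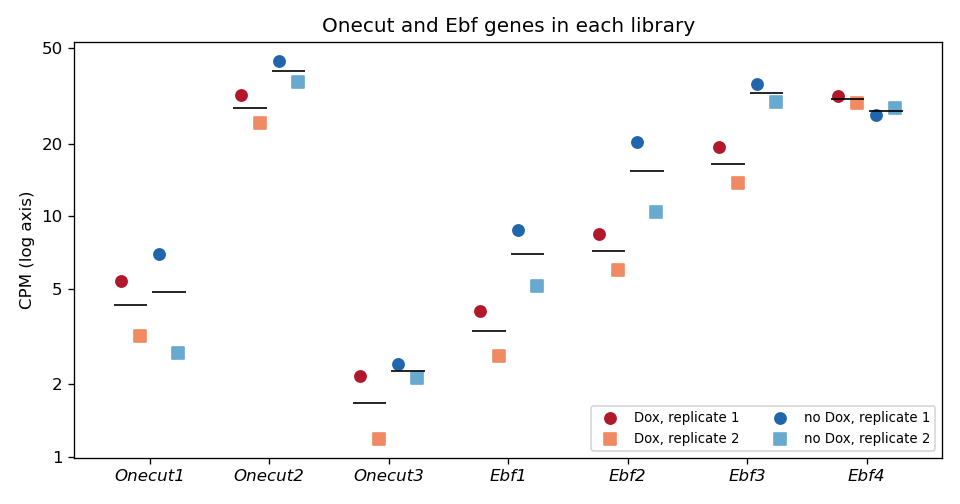
CPM on a log axis for each Onecut and Ebf gene, with 1 point per library (red for Dox, blue for no Dox, circles for replicate 1, squares for replicate 2) and a line at each group's mean. The Dox points of Onecut2, Ebf1, Ebf2 and Ebf3 lie below both no Dox points, while replicate 1 lies above replicate 2 in both groups for every gene but Ebf4.

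Ebf3, a factor of postmitotic neurons whose loss of function in humans causes a neurodevelopmental syndrome, gave the smallest p among the members. Its level was 19.3 and 13.7 CPM in the Dox libraries and 35.3 and 29.7 CPM in the no Dox libraries, with 723 to 963 counts per library. The groups did not overlap, and the gap between them exceeded the difference within either pair. Its log2 fold change was -0.98 (SE 0.21, 95% interval -1.49 to -0.47, edgeR adjusted p = 0.124, unadjusted p = 0.00322). Leaving out no Dox replicate 2 brought the edgeR adjusted p to 0.0412 (0.571% of all genes called lower), and leaving out Dox replicate 1 brought it to 0.00602 (0.859%). It also passed with no filter on low counts (adjusted p = 0.0498, 0.261% of all genes lower), with the largest part of the gene as its count (0.0324, 0.105%) and in DESeq2 (0.00236). With the replicate number as a block in edgeR, it passed as well (adjusted p = 5.52e-06, 6.08% of all genes lower). edgeR did not call it with DESeq2 size factors (adjusted p = 0.133), library totals only (0.102) or a mean filter of 5 CPM (0.179). Ebf3 was called in 6 of 13 alternatives. It did not pass when no Dox replicate 1 was left out (log2 fold change -0.84, adjusted p = 0.152), when Dox replicate 2 was left out (-0.73, 0.298), in limma-voom (-1.02, 0.103), or when counted over its wholly coding parts (-0.89, SE 0.38, 0.504).

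Ebf2, known in mouse for the migration of several neuron types, stood at 8.40 and 5.95 CPM with Dox against 20.3 and 10.4 CPM without. All values with Dox were below those without, but the no Dox replicates were themselves 1.95 times apart. The log2 fold change of -1.11 (SE 0.35, 95% interval -1.97 to -0.24, edgeR adjusted p = 0.324) was -0.53 when no Dox replicate 1 was left out. Over wholly coding parts it was -1.04 (SE 0.5, edgeR adjusted p = 0.578). It was -1.51 when no Dox replicate 2 was left out and then passed (edgeR adjusted p = 0.0129), as it did when Dox replicate 1 was left out (0.0488) and in DESeq2 (0.0428).

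Ebf1, the founding member of the family, had the fewest counts of the Ebf genes. It stood at 4.04 and 2.62 CPM with Dox against 8.74 and 5.14 CPM without. Here too the groups did not overlap, although the highest Dox value and the lowest no Dox value were close. The difference on the log2 scale was -1.07 (SE 0.35, 95% interval -1.93 to -0.21, edgeR adjusted p = 0.334), and -0.63 without no Dox replicate 1.

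Ebf4 differed least of the Ebf genes. Its values were 31.5 and 29.4 CPM with Dox and 26.2 and 28.2 CPM without, the tightest replicates of all 7 genes. Both Dox values were the higher ones, as in 18.9% of all genes. With a log2 fold change of 0.16 (SE 0.13, edgeR adjusted p = 0.81) and a 95% interval of -0.16 to 0.48, a 2-fold change in either direction lay outside the interval.

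**Figure D2:**
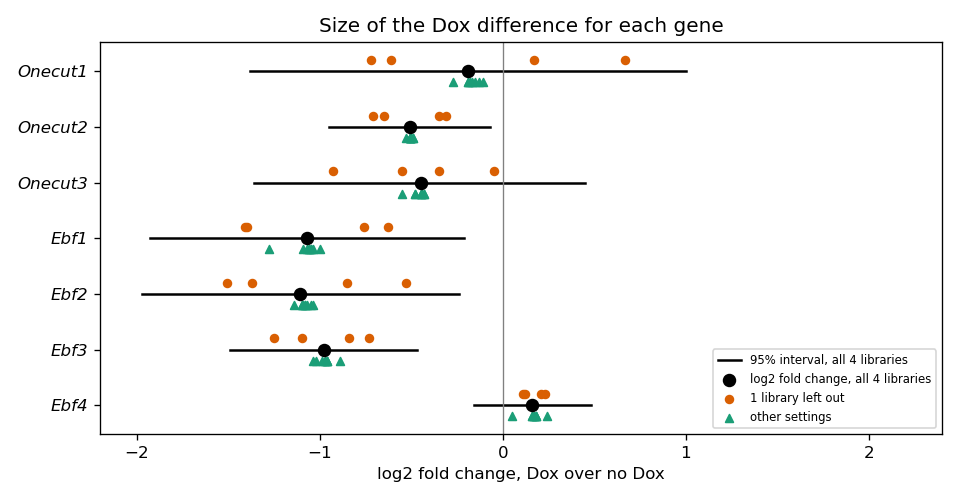
Log2 fold change of Dox over no Dox for each gene (black points, with the 95% interval of the edgeR fit as a line), beside the values with 1 library left out (orange) and under the other settings (green triangles). The intervals of Ebf1, Ebf2, Ebf3 and Onecut2 lie below 0, those of Onecut1, Onecut3 and Ebf4 span it, and the points of Onecut1 with a library left out fall on both sides of 0.

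Because all 4 Ebf genes share 11 coding exons of nearly the same length (1033 to 1057 bases in sum), their levels could be compared per kb. Over these exons Ebf4 was the most abundant in every library, at 15.3 and 13.6 CPM per kb with Dox and 12.8 and 11.9 CPM per kb without. Ebf3 came next in every library, at 6.71 and 3.10 CPM per kb with Dox and 11.7 and 7.27 CPM per kb without. Ebf2 and Ebf1 could not be ordered. Ebf2 had 3.24 and 1.77 CPM per kb with Dox and 7.11 and 2.25 CPM per kb without, against 1.87 and 1.11 CPM per kb with Dox and 3.85 and 2.66 CPM per kb without for Ebf1, so Ebf1 was the higher of the pair in no Dox replicate 2. Over these exons the Dox and no Dox groups of Ebf2 overlapped, unlike over the whole gene.

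Ebf4 made up a larger share of the family in both Dox libraries than in either no Dox library. Its share of the summed level was 56.4% and 69.5% in the Dox libraries and 36.1% and 49.3% in the no Dox libraries. Ebf3 took 24.7% and 15.8% with Dox against 33.1% and 30.2% without. The Ebf4 shares did not overlap between the groups, which gives a two-sided exact permutation p of 0.333, the smallest that 2 against 2 libraries allow. The level of Ebf4 over that of Ebf3 was 2.28 and 4.39 with Dox and 1.09 and 1.64 without. The sum of all 4 genes overlapped between the groups, at 27.1 and 19.6 CPM per kb with Dox and 35.5 and 24.1 CPM per kb without.

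**Figure D3:**
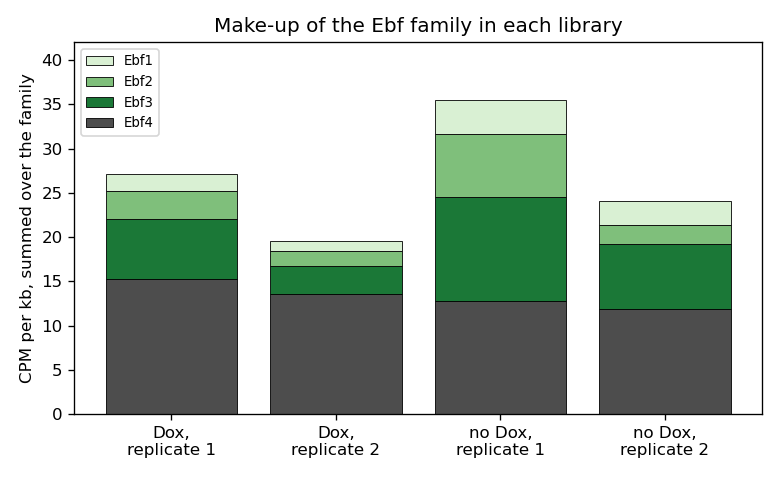
Stacked bars of the level of Ebf1, Ebf2, Ebf3 and Ebf4 (CPM per kb over 11 shared coding exons) in each library. The Ebf4 section at the foot is of similar height throughout (11.9 to 15.3 CPM per kb), and the other 3 sections sum to 11.8 and 5.98 CPM per kb with Dox and to 22.7 and 12.2 CPM per kb without.

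Exon by exon the picture was uneven. In Ebf1 both Dox libraries lay below both no Dox libraries in 7 of the 11 shared exons, in Ebf3 in 5 and in Ebf2 in 2, and in none of these genes did any of the 11 lie above. In Ebf4 none lay below and 4 lay above. Neighbouring exons share spanning reads, so these are not independent counts. Counted over whole genes, 19.9% of all genes tested lay below and 18.9% above, and no such share was taken over exons. Single exons held few reads: each shared exon of Ebf1 had 2 to 12 counts in a library.

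**Figure D4:**
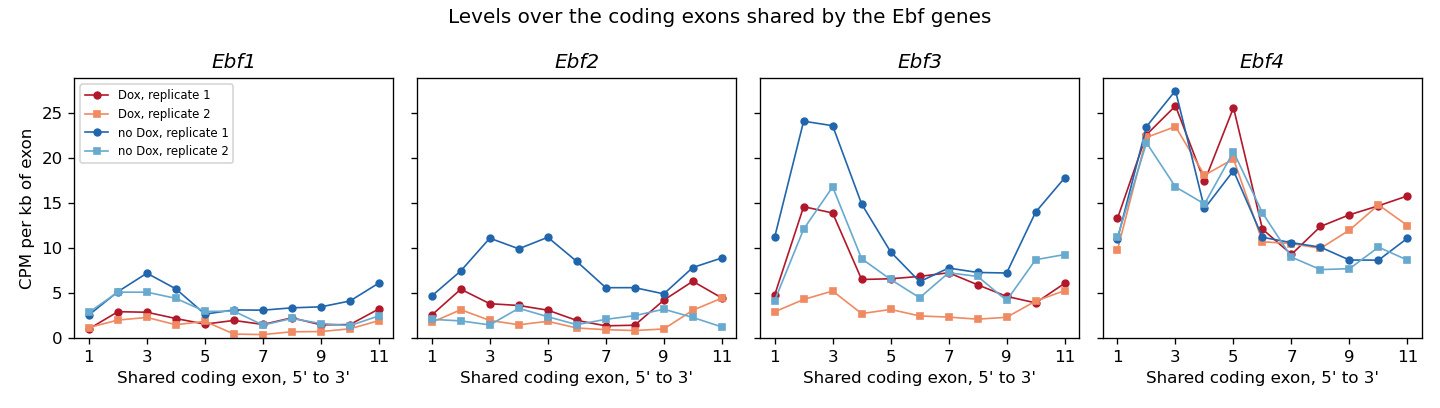
Level along the 11 coding exons shared by the Ebf genes, in CPM per kb of exon, from 5′ to 3′, with 1 line per library (red for Dox, blue for no Dox). No Dox replicate 1 is highest in all 11 exons of Ebf2, in 10 of Ebf3 and in 9 of Ebf1, and in Ebf4 the 4 lines cross.

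The files give parts in order but without positions, and each member had as many parts as GENCODE exons once transcript ends were merged. Read in that order, the Ebf3 groups stood further apart, relative to their spread, in the 3′-most part (the last exon) than in the rest of the gene. This part stood at 8.56 and 8.33 CPM with Dox against 17.5 and 17.8 CPM without. The remaining parts of Ebf3 stood at 10.8 and 5.38 CPM with Dox against 17.8 and 11.9 CPM without. Summed over libraries, the Dox to no Dox ratio was 0.48 in the 3′-most part (95% counting interval 0.43 to 0.52) and 0.51 in the rest (0.46 to 0.56). Both regions gave like ratios in Ebf2 as well, with 0.44 (0.37 to 0.51) and 0.45 (0.39 to 0.52), and in Ebf1, with 0.40 (0.27 to 0.59) and 0.47 (0.39 to 0.55). In Ebf4 they were 1.03 (0.91 to 1.17) and 1.14 (1.06 to 1.24). These intervals cover counting error only.

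Onecut2, which with Onecut1 sustains Isl1 expression in mouse motor neurons, had the most counts of the Onecut genes. It stood at 31.7 and 24.4 CPM with Dox against 43.9 and 36.0 CPM without. The groups did not overlap, but the gap between the nearest libraries was smaller than the difference within either group. On the log2 scale the difference was -0.51 (SE 0.18, 95% interval -0.95 to -0.07, edgeR adjusted p = 0.389). It became -0.31 when Dox replicate 2 was left out and -0.71 when Dox replicate 1 was, and passed in neither case (edgeR adjusted p = 1.0 and 0.212).

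Onecut1 varied more between replicates than between groups. Its level was 5.38 and 3.19 CPM with Dox and 6.97 and 2.69 CPM without, so the highest and the lowest value both came from the no Dox group. The log2 fold change of -0.19 (SE 0.49, 95% interval -1.38 to 1.0, edgeR adjusted p = 0.97) turned to 0.67 when no Dox replicate 1 was left out and to 0.17 when Dox replicate 2 was. The interval reaches 2-fold in both directions, so a change of that size was not excluded for Onecut1.

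Onecut3 had the fewest counts of the 7, with 52 to 81 per library. It stood at 2.17 and 1.19 CPM with Dox and 2.42 and 2.12 CPM without, with overlapping groups. Its difference was -0.45 on the log2 scale (SE 0.37, 95% interval -1.36 to 0.45, edgeR adjusted p = 0.81), and -0.05 without Dox replicate 2 but -0.93 without Dox replicate 1.

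The order of Onecut levels depended on which exon was read. Each gene has 2 exons, the first holding most of the coding sequence. Per kb of the first exon, Onecut1 led in every library, with 2.67 and 1.43 CPM per kb with Dox and 3.57 and 1.32 CPM per kb without, against 1.04 and 0.334 CPM per kb with Dox and 0.992 and 0.667 CPM per kb without for Onecut2. Per kb of the second exon Onecut2 led in every library, with 2.05 and 1.63 CPM per kb with Dox and 2.89 and 2.38 CPM per kb without, against 0.573 and 0.429 CPM per kb with Dox and 0.682 and 0.297 CPM per kb without for Onecut1. Onecut3 was lowest over the first exon, with at most 10 counts there in any library. The second exon of Onecut2 is 14643 bases in the later annotation and held 94.8% to 97.8% of its counts. Exon lengths came from GRCm38 models, and the authors' mm9 models may end elsewhere, which bears on levels over last exons.

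Replicate 1 was higher than replicate 2 in both groups for 6 of the 7 members, all but Ebf4, as in 35.6% of all genes tested. The ratio of replicate 1 to replicate 2 was widest for Onecut1, at 1.69 with Dox and 2.59 without. Replicates as far apart as the no Dox pair of Onecut1 were seen in 2.18% of all genes. For Ebf2 the ratios were 1.41 with Dox and 1.95 without, for Ebf1 1.54 and 1.70, and for Ebf4 1.07 and 0.93. The share of counts in the 3′-most part also differed by replicate: it was larger in replicate 2 than in replicate 1 in both groups for all 7 members. No such count was taken over all genes, so the shift is not shown to be particular to the members. For Ebf3 the share in the 3′-most part was 44.3% and 60.7% in Dox replicates 1 and 2 and 49.6% and 60.0% in no Dox replicates 1 and 2. For Ebf4 it was 22.4% and 28.8% with Dox and 23.6% and 32.8% without. The part of this shift along the genes in the replicate spread was not tested.

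Zfp423 and Zfp521, zinc finger proteins that bind Ebf proteins and modulate their activity, were called by neither edgeR nor DESeq2, and Zfp521 was higher at an unadjusted p of 0.0083 in edgeR. Zfp521 stood at 57.7 and 54.6 CPM with Dox and 42.7 and 39.6 CPM without (log2 fold change 0.45, edgeR adjusted p = 0.207), and Zfp423 at 58.2 and 40.0 CPM with Dox and 54.8 and 40.7 CPM without (0.04, edgeR adjusted p = 0.991).

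Neuronal basic helix-loop-helix factors, which act before and alongside Ebf genes in neuron birth, had a median log2 fold change of -1.14 over 7 tested genes of 11. edgeR called none of them, 6 were lower at an unadjusted p under 0.05, and DESeq2 called 6 lower. Nhlh2, a factor of newborn neurons, had 22.8 and 13.9 CPM with Dox and 44.4 and 36.5 CPM without, and Neurog1, a proneural factor, 15.9 and 10.4 CPM with Dox and 29.0 and 26.9 CPM without. The groups did not overlap for either gene, with an edgeR adjusted p of 0.141 for Nhlh2 and 0.116 for Neurog1.

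Among 7 LIM-homeodomain factors and partners, edgeR called 5 higher (1.23% of all genes) and 0 lower (0.056%). Besides Isl1 and Lhx3 these included Mnx1, a determinant of motor neurons, with 48.5 and 43.9 CPM with Dox against 2.31 and 0.939 CPM without, and Lhx4, a close relative of Lhx3, with 9.61 and 9.08 CPM with Dox against 0.110 and 0.0408 CPM without. The 5 called genes had log2 fold changes of 1.31 to 8.37, and the other 2, Isl2 (0.90) and the cofactor Ldb1 (0.11), were not called. The called genes include the fused factors Isl1 (4.39) and Lhx3 (8.37), which Dox turns on by design. Reads of the fusion may be counted in both.

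Markers of newborn neurons moved unevenly beside the members. Of 20 genes edgeR called 2 higher and 0 lower, 14 had a log2 fold change below 0, and the median was -0.36. At an unadjusted p under 0.05 the list had 4 higher and 5 lower, and DESeq2 called 4 higher and 2 lower. Nefm, a neurofilament subunit, rose to 251 and 311 CPM with Dox, against 95.2 and 93.8 CPM without (edgeR adjusted p = 0.00757), and Gap43 of the growth cone rose by 1.0 on the log2 scale (SE 0.13, edgeR adjusted p = 0.0268). The summed level of the list was 1740 and 1430 CPM with Dox and 1030 and 789 CPM without, of which Nefl alone made up 900 and 659 CPM with Dox and 277 and 166 CPM without. Neural progenitor markers had a median of -0.64 over 17 genes, with 1 called higher (Nkx6-2) and 0 lower by edgeR, 1 higher and 8 lower at an unadjusted p under 0.05, and 1 higher and 5 lower in DESeq2. They summed to 1630 and 1250 CPM with Dox and 2000 and 1640 CPM without. The part of these shifts in the Onecut and Ebf values was not tested.

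Interneurons that use Onecut or Ebf factors were covered by 3 lists. Of 6 tested genes of V1 interneurons and Renshaw cells, 1 was called higher: Calb1, the calcium buffer calbindin, with 12.5 and 10.7 CPM with Dox against 1.5 and 2.04 CPM without (edgeR adjusted p = 0.00757). In this list 2 genes were lower at an unadjusted p under 0.05, both factors of transcription: Pax2, with 5.89 and 2.71 CPM with Dox against 12.7 and 9.51 CPM without, and Foxd3, with 0.428 and 0.513 CPM with Dox against 1.21 and 1.43 CPM without. DESeq2 called 1 gene of the list higher and 1 lower. Of 11 tested dorsal interneuron and sensory factors, 1 was called lower: Pou4f1, with 11.4 and 10.3 CPM with Dox against 29.6 and 31.3 CPM without (edgeR adjusted p = 0.00904). The median of this list was -0.78, with 1 higher and 5 lower at an unadjusted p under 0.05, and DESeq2 called 0 higher and 3 lower. Of 4 tested V0, V2 and V3 factors edgeR and DESeq2 called 0, with 2 lower at an unadjusted p under 0.05. Gata3, of V2b interneurons, stood at 7.28 and 7.84 CPM with Dox and 5.98 and 7.96 CPM without, Gata2 at 3.50 and 5.09 CPM with Dox and 2.42 and 5.31 CPM without, and Bhlhe22 at 5.19 and 3.39 CPM with Dox and 7.60 and 6.37 CPM without.

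Other cell types in which these families act were read from their markers. Early B cell genes were near 0: 8 markers summed to 0.963 and 0.714 CPM with Dox and 1.32 and 0.775 CPM without, and Igll1 had no count in any library. Of 8 olfactory sensory neuron genes 2 passed the filter on low counts, Gnal (edgeR adjusted p = 0.663) and Adcy3 (0.625), which couple odorant receptors to their signal. Endoderm markers were present, and edgeR and DESeq2 called 0 of the 9 tested, with 0 at an unadjusted p under 0.05. The 12 markers of liver, pancreas and gut summed to 221 and 245 CPM with Dox and 241 and 273 CPM without, led by Sox17 with 86.8 and 86.0 CPM with Dox and 92.7 and 109 CPM without, while G6pc was at 0 in every library. Mesenchyme and adipocyte markers summed to 507 and 494 CPM with Dox and 507 and 476 CPM without, of which Pdgfra, a growth factor receptor, made up 389 and 392 CPM with Dox and 467 and 425 CPM without. The other 9 markers summed to 118 and 103 CPM with Dox and 40.7 and 51.3 CPM without. Of 7 tested, edgeR called 2 higher, Prrx1 (log2 fold change 3.28) and Col1a1 (2.00), and 0 lower, 3 were higher at an unadjusted p under 0.05 (also Twist1, 0.76), and DESeq2 called 3 higher. The part of endoderm and mesenchyme in the Onecut and Ebf levels was not tested.

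**Figure D5:**
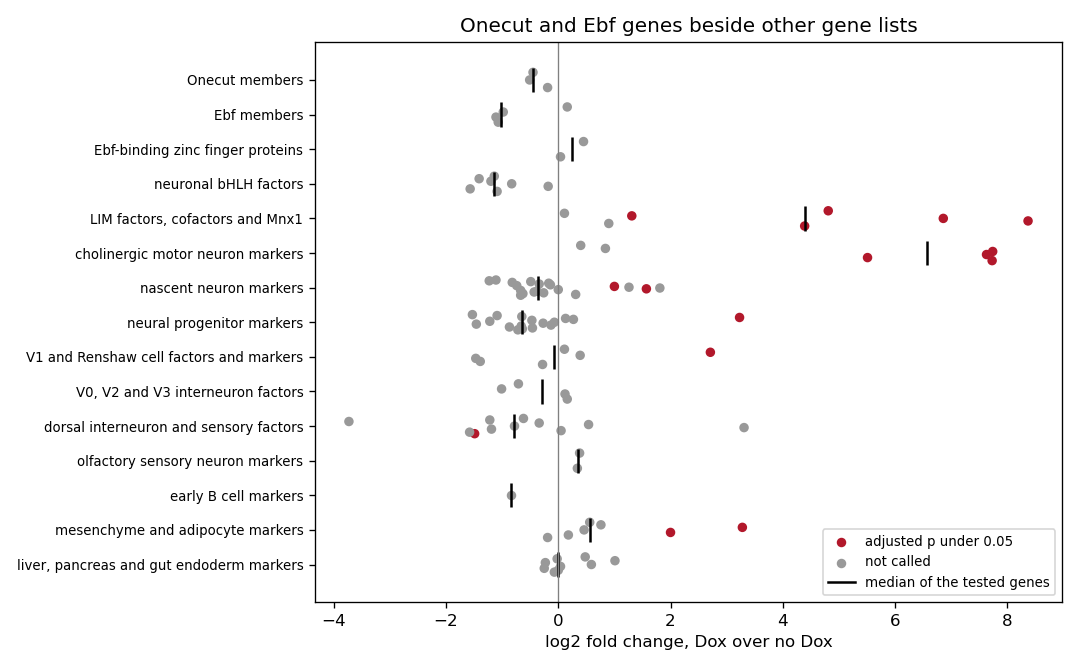
Log2 fold change of Dox over no Dox for the tested genes of each list, with called genes in red, others in grey and the median of the tested genes as a black line. All tested genes of the LIM and cholinergic lists lie above 0, while the Onecut and Ebf genes lie between -1.11 and 0.16.

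Genes with the most similar pattern over the 4 libraries were found by the smallest distance between centred log2 CPM among the 10722 genes whose mean reached 5 CPM, for the member of each family with the highest level per kb of all exons. For Onecut2 these were Syt11, Adgrb1, Mns1, Alpl and Pdzrn3, at distances of 0.061 to 0.084. Syt11, the nearest, stood at 47.7 and 37.2 CPM with Dox and 64.3 and 51.9 CPM without. For Ebf4 they were Tmem101, Zbed3, Pdgfrb, Ddit4l and Mettl27, at 0.004 to 0.029. Tmem101 stood at 35.3 and 33.0 CPM with Dox and 29.5 and 31.6 CPM without.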

How the data were processed

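Total RNA of 4 samples was made into indexed TruSeq libraries, per the labels' protocols. The submitters' processing notes name TopHat and mouse build mm9. Which program counted reads, with which annotation and strand setting, is not given in the sources used here. Raw counts were deposited per numbered part of a RefSeq gene unit, 1 table per library. A read that spans parts may be counted in each. Rows naming no gene were left out: reads outside genes were 13.6% to 15.8% of counts and ambiguous ones 0.41% to 0.52%.

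Parts were summed to genes and named by RefSeq identifier from GRCm38.p6 and GENCODE M21 (97.1% of 27601 matched). The members' parts were matched to GENCODE exons by number, taken to run in genomic order, with the ends of Ebf3 transcripts merged. edgeR 4.0.16 (R 4.3.3) tested genes with TMM scaling, its default low-count filter, robust quasi-likelihood fits and Benjamini-Hochberg adjustment at 0.05 over 14283 genes. CPM values are TMM-scaled. DESeq2 1.42.0 and limma 3.58.1 were alternatives. In counts simulated for this comparison (14165 genes run), 69 of 100 changes of 2-fold and 99 of 100 of 4-fold were recovered by edgeR, and 9 unchanged genes were called. The simulation gave same-numbered libraries no shared deviation, and its recovery is an average over many genes. The biological coefficient of variation in edgeR was 0.249 for Ebf1 and 0.252 for Ebf2, against 0.148 in common. The recovery is therefore not a rate for single members.

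Members, lists and tests were chosen with earlier results of these data known. Named genes are all members, Isl1 and Lhx3, up to 4 called genes per list (or the 3 most abundant), and the 5 nearest patterns per family. Nefl, Nkx6-1, Col1a2, Ret, Prph, Isl2, Ldb1, Pax2, Foxd3, Pdgfra, Twist1 and the list genes at 0 in every library were named after their values were seen. 1 gene named by this rule is not reported here. P-values of edgeR set the difference between groups against the spread between replicate libraries, which the fit estimates with help from all genes.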

Additional observations from a re-analysis of the deposited data

How the results depend on the processing

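Across 13 alternatives, 12 of them planned and 1 (Ebf genes counted over wholly coding parts) chosen after seeing the data, 75 of 89 member values kept their direction and their side of the threshold. In 12 a member became called. In 2 the sign turned, both for Onecut1, whose log2 fold change ran from -0.72 to 0.67 with a library left out (0.67 for no Dox replicate 1 and 0.17 for Dox replicate 2). The number of members called lower, 0 by edgeR, was 1 with no filter on low counts (Ebf3), 1 with the largest part as the count (Ebf3), 2 in DESeq2, and 0 to 2 with a library left out. All genes called, 183, became 341 with no filter, 108 with a mean of at least 5 CPM, 511 in DESeq2 and 299 to 407 with a library left out. With the filter at 5 CPM, Onecut1 and Onecut3 had no value. Where a library is left out, the lone library of its group is assumed to vary like the others. The causes were not tested.

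The groups share replicate numbers, but the labels do not say that a number marks a shared batch, and 2 pairs are too few to show it. With the replicate block, edgeR called 1916 genes (6.08% of all genes lower) and 4 members lower, Onecut2, Ebf1, Ebf2 and Ebf3. Same-numbered libraries deviated together from their group means (r = 0.521 across 14283 genes, which are not independent). Onecut3, with 52 to 81 counts, is limited most by depth.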

Other observations

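Beyond the neuronal genes, 3 listed genes rose with Dox. Nkx6-2, a homeodomain factor of ventral spinal progenitors, stood at 25.9 and 32.6 CPM with Dox and 2.57 and 3.67 CPM without (log2 fold change 3.23, SE 0.24, edgeR adjusted p = 0.00389). Its relative Nkx6-1 stood at 1.44 and 1.06 CPM with Dox and 1.17 and 1.10 CPM without. In the mesenchyme list Prrx1, a homeodomain factor of limb and craniofacial mesenchyme, stood at 35.3 and 25.1 CPM with Dox and 2.61 and 3.63 CPM without (3.28, SE 0.26, edgeR adjusted p = 0.0045), and Col1a1, a chain of type I collagen, at 34.4 and 23.3 CPM with Dox and 7.23 and 7.18 CPM without (2.00, SE 0.23, edgeR adjusted p = 0.0175). Col1a2, the other chain, stood at 9.93 and 17.0 CPM with Dox and 8.55 and 11.1 CPM without (edgeR adjusted p = 0.717).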
